A study of Mus musculus with 4 samples.

Results

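Inflammatory alveolar macrophages were a small group of mouse lung macrophages with many transcripts of Tnf, Il1a and Cxcl10. They were chosen by UMI counts, a UMI (unique molecular identifier) being 1 counted RNA molecule. Among cells that had 200 or more genes and no more than 10% of UMIs from mitochondrial genes, a cell was taken as an alveolar macrophage when Krt79, Fabp1, Plet1, Car4, Cidec, Siglecf and Ear1 summed to at least 8 UMIs and Cd3e and Cd79a were at 0. It was called inflammatory when Tnf, Il1a and Cxcl10 summed to at least 10 UMIs. The rule found 188 such cells among 2014 alveolar macrophages and 13344 cells passing the filters, and the other 1826 alveolar macrophages were the contrast.

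Live CD45+ cells had been sorted from lungs of C57BL/6 mice that were wild type (WT) or lacked Rab37 (Rab37 KO), a small GTPase of vesicle traffic. The mice had been injected with Matrigel alone, called normal here, or with LLC lung carcinoma cells, called tumor, and cells were taken at day 14. Each of the 4 groups had 1 library, and whether a library pooled several mice is not stated in the labels. With 1 library per group, no p-value was computed, and the 95% intervals given are exact but cover only the error of counting. The tissue had been digested with collagenase and Dispase before the sort.

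Alveolar macrophages live on the air side of the lung, where they clear surfactant, particles and microbes, and they are recognised by genes such as Siglecf, Car4 and Ear1. When pattern recognition receptors or the receptors for TNF and IL-1 are engaged, the transcription factor NF-kB enters the nucleus and switches on cytokine and chemokine genes. The same factor induces its own inhibitors, among them Nfkbia and Tnfaip3. Tnf and Il1a encode cytokines that themselves engage this pathway, whereas Cxcl10 encodes a chemokine for T and NK cells that is also induced by interferon.

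The 4 genes that name these cells lie on different chromosomes in the mm10 build. By the GENCODE annotation, Tnf is at chr17:35199381-35202007 on the minus strand and Il1a at chr2:129299610-129309972 on the minus strand. Cxcl10 is at chr5:92346638-92348889 on the minus strand and Plet1 at chr9:50494525-50505482 on the plus strand.

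The upstream sequences of 4 genes that were high in the inflammatory cells are shown because letters of the NF-kB consensus were found in each. They are the 200 bases before the annotated start, from RefSeq on GRCm38.p6, written 5′ to 3′ on the gene's strand, with matches to the consensus on either strand in capitals.
Cxcl10, chr5:92348890-92349089, minus strand: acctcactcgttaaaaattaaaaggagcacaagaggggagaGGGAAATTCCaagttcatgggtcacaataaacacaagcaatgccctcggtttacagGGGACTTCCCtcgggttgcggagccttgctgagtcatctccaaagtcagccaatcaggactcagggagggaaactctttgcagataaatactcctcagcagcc
Cxcl2, chr5:90903699-90903898, plus strand: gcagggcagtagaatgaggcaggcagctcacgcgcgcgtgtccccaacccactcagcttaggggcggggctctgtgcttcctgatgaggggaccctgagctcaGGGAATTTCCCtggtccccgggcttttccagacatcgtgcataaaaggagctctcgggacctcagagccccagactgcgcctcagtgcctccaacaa
Cxcl1, chr5:90891045-90891244, plus strand: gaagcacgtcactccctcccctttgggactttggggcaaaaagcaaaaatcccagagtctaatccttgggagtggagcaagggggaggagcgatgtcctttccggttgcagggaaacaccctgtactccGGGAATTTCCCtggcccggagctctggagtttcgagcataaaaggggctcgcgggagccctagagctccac
Nfkbia, chr12:55492648-55492847, minus strand: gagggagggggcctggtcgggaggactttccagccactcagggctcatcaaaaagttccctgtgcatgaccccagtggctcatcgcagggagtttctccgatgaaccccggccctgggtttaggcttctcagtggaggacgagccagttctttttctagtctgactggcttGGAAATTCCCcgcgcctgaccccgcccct

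In the Cxcl10 sequence the consensus was matched at 159 to 150 and at 103 to 94 bases before the start, both on the sense strand. The Cxcl1 and Cxcl2 sequences each held a sense match overlapped by an antisense match, beginning 71 and 97 bases before the start. The single match before Nfkbia, 29 to 20 bases before its start, was on the antisense strand. Over a window of the 250 bases before a start, the consensus was found in 3.90% of 32851 mouse promoters. Of the 12 genes named below as most raised, 10 had an entry, and Ereg and Nfkbiz had none. These 10 genes had 14 promoters, of which 7 held a match, each in a different gene. Cxcl10 held a match and Tnf and Il1a held none in this window. For comparison, 2 of the 8 promoters of the 7 alveolar macrophage genes of the rule also held one. The interferon-stimulated response element, searched as GAAANNGAAA on both strands, was found in 2.98% of all promoters and, among the 3 rule genes, only before Cxcl10, 213 to 204 bases upstream. A match is a description of letters and does not show that a factor binds there.

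Normal WT lung held 135 inflammatory cells among 1000 alveolar macrophages, and normal Rab37 KO lung held 50 among 725. The tumor WT library held 0 of 25, which allows a share of up to 12% by the limit of 3 counts and 13.7% by the exact interval, and the tumor Rab37 KO library held 3 of 264. The shares were thus 13.5% (11.4 to 15.8) in normal WT, 6.90% (5.16 to 8.99) in normal Rab37 KO and 1.14% (0.235 to 3.28) in tumor Rab37 KO, by exact Clopper-Pearson intervals. Their median depth was close to that of the other alveolar macrophages in both normal libraries, at 12358 against 11193 UMIs in WT and 14670.5 against 13270 UMIs in Rab37 KO. Cells with at least 5000 UMIs were also thinned to 5000 UMIs before the rule was applied, and shallower cells were left out. The shares were then 8.09% in normal WT, 1.02% in normal Rab37 KO and 0% in tumor Rab37 KO. Rab37 itself had 318 UMIs over all barcodes of the normal WT library and 13 in normal Rab37 KO, and 25 and 8 in tumor WT and tumor Rab37 KO.

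The sum of the 3 rule genes spread widely within the inflammatory cells. In normal WT its median was 29 UMIs per cell and its highest value 283, with 34 of 135 cells at 50 UMIs or more. The normal Rab37 KO cells had a median of 12, and the highest value was 76 and 2 of 50 cells reached 50 UMIs. Of the inflammatory cells, 48 of 135 in normal WT and 38 of 50 in normal Rab37 KO lay between 10 and 19 UMIs. The normal Rab37 KO cells therefore sat mostly just above the limit, and the normal WT cells mostly well above it.

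**Figure D1:**
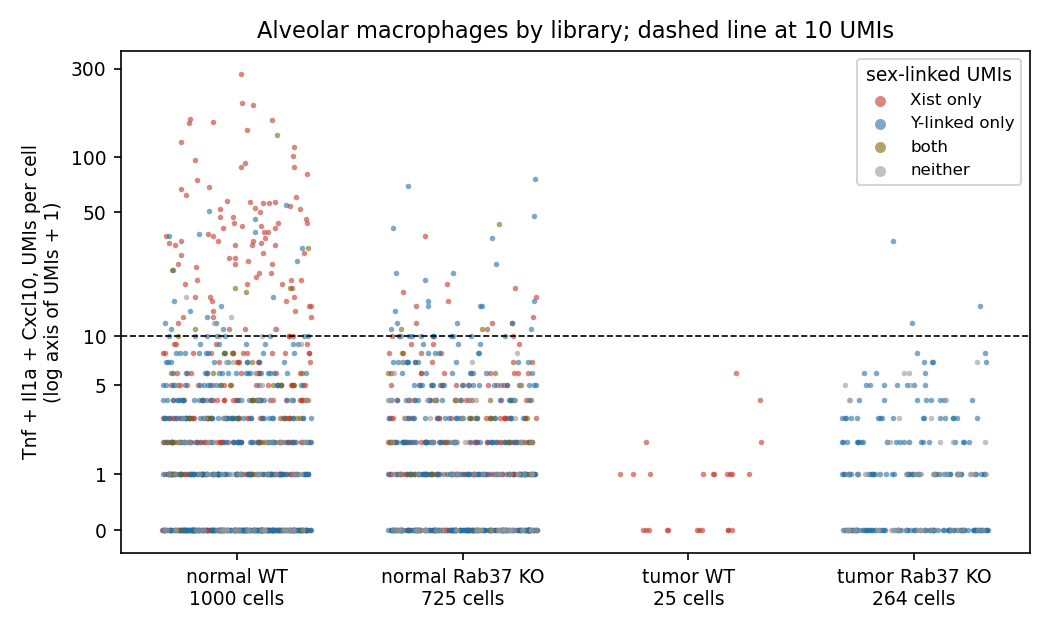
UMIs of Tnf, Il1a and Cxcl10 summed in each alveolar macrophage (vertical axis, log axis of UMIs + 1) in the 4 libraries, with 1 point per cell coloured by whether it had UMIs of Xist, of Y-linked genes, of both or of neither. Above the dashed limit at 10 UMIs lie 135 normal WT cells reaching 283 UMIs, 50 normal Rab37 KO cells reaching 76, no tumor WT cell and 3 tumor Rab37 KO cells.

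Cells just inside and just outside the limit are given once, as a description. In normal WT, the 21 cells with 10 or 11 UMIs had 1092 CPM of Nfkbia and 2582 CPM of Cxcl2, and the 35 cells with 8 or 9 UMIs had 604 and 2372 CPM. CPM here are UMIs of a gene per 1000000 UMIs of a class, added over its cells. The 20 normal Rab37 KO cells just inside had 633 CPM of Nfkbia and 2896 CPM of Cxcl2, and the 17 just outside had 346 and 750 CPM. Tnfaip3 went the other way in normal WT, at 224 CPM inside and 311 CPM outside, and was at 209 and 129 CPM in normal Rab37 KO. Plet1 was at 1343 CPM inside and 1391 CPM outside in normal WT, and at 1517 and 1295 CPM in normal Rab37 KO. The limit cut a continuous range of sums, as the plot of the sum in each cell shows.

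The 3 rule genes were not raised to the same extent in every cell. In normal WT, Tnf was found in 132 of 135 inflammatory cells, Il1a in 97 and Cxcl10 in 98, and 69 cells had all 3. Tnf made up more than 50% of the sum in 71 cells, Cxcl10 in 38 and Il1a in 4. The Rab37 KO cells had Tnf in 49 of 50 cells, Il1a in 22 and Cxcl10 in 21, and 8 cells had all 3. Tnf supplied 49.1% of the UMIs of the sum in normal WT and 55.9% in normal Rab37 KO, Cxcl10 36.3% and 33.9%, and Il1a 14.5% and 10.2%. Tnf thus made up most of the sum in more cells than Cxcl10 or Il1a did.

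**Figure D2:**
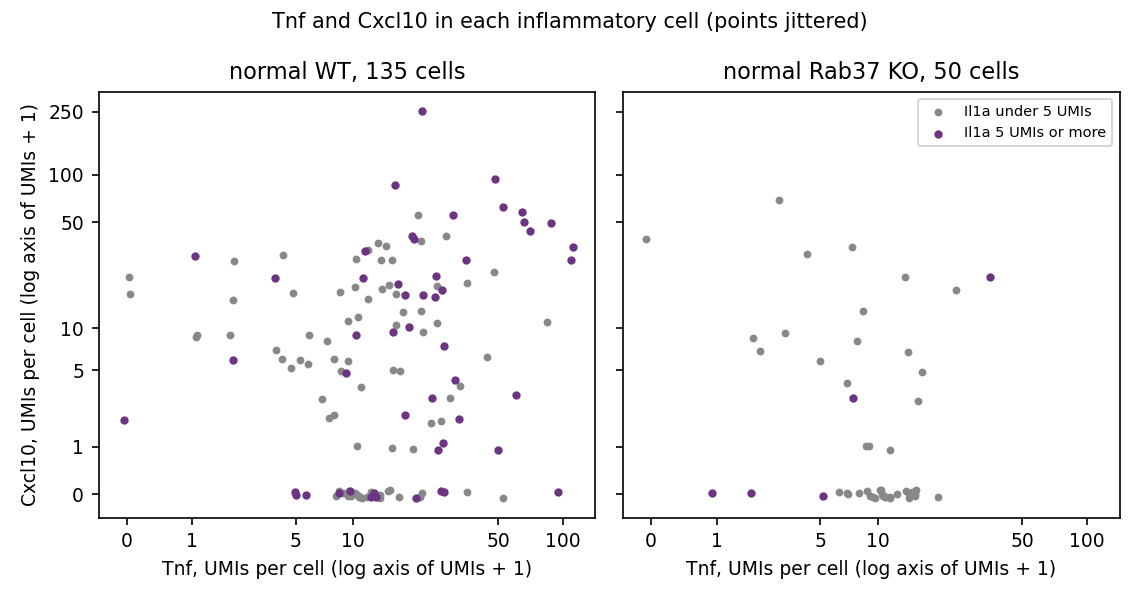
Tnf (horizontal axis) and Cxcl10 (vertical axis), in UMIs per cell on log axes of UMIs + 1, in each inflammatory cell of the 2 normal libraries, slightly jittered, with cells of 5 or more Il1a UMIs in purple. Cells with all 3 genes are 69 of 135 in normal WT and 8 of 50 in normal Rab37 KO, and the points along the bottom edge are cells with Tnf and no Cxcl10.

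Because a sum joins genes that need not move together, cells were also picked on some of the 3 genes and described by the others, a choice made after the data were seen. In normal WT, the 110 alveolar macrophages with at least 10 UMIs of Tnf and Il1a had 1244 CPM of Cxcl10, which was not used to pick them, against 36.8 CPM in the other 890, a ratio of 33.8 (30.3 to 37.8). Cxcl10 was found in 66.4% of those cells and in 8.43% of the others. The 37 normal Rab37 KO cells picked in this way had 142 CPM of Cxcl10 against 32.7 CPM, a ratio of 4.35 (3.36 to 5.57), and Cxcl10 was found in 21.6% of them and in 5.96% of the others. Picked on Cxcl10 alone, 58 normal WT cells had 1962 CPM of Tnf against 208 CPM, a ratio of 9.41 (8.82 to 10.0), and 8 normal Rab37 KO cells had 532 against 124 CPM, a ratio of 4.28 (3.44 to 5.28). Both choices gave higher levels of the gene left out in both libraries, although most Rab37 KO cells picked on Tnf and Il1a had no Cxcl10 UMI.

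Across alveolar macrophages thinned to 5000 UMIs, Spearman's rho between Tnf and Cxcl10 was 0.41 in 971 normal WT cells and 0.10 in 708 normal Rab37 KO cells. For Tnf with Il1a it was 0.30 and 0.12, and for Il1a with Cxcl10 0.28 and 0.06. These are descriptions over cells that share a library. The values in normal Rab37 KO are weak and are not read as findings.

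Free RNA can place UMIs in cells that do not express a gene, so the share of cells with a UMI was set beside that of B cells. In normal WT, Tnf was found in 54.0% of alveolar macrophages and 4.52% of B cells, Il1a in 35.4% and 0.266%, and Cxcl10 in 14.8% and 3.05%. Shares in normal Rab37 KO were 51.6% and 3.52% for Tnf, 29.4% and 0.147% for Il1a, and 6.76% and 1.76% for Cxcl10. In tumor Rab37 KO, Cxcl10 was found in 2.65% of alveolar macrophages and in 8.25% of 97 B cells, so that its share there is at background. Tnf was found there in 47.3% of alveolar macrophages and 27.8% of B cells, and Il1a in 18.6% and 10.3%, at median depths of 11807 and 3989 UMIs. B cells were shallower, with a median of 3679 UMIs in normal WT.

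Levels over all alveolar macrophages, with no limit on the 3 genes, followed the same order of libraries for Tnf. Tnf was at 322 CPM (312 to 332) in normal WT, 131 CPM (124 to 139) in normal Rab37 KO, 88.0 CPM (78.4 to 98.4) in tumor Rab37 KO and, last, 35.5 CPM (18.4 to 62.1) in tumor WT, and no neighbouring intervals overlapped. Il1a was at 112 CPM in normal WT, 39.1 CPM in normal Rab37 KO and, for the tumor libraries, 21.3 CPM (16.8 to 26.8) with Rab37 KO and 11.8 CPM (3.23 to 30.3) with WT, and the intervals of the tumor libraries overlapped. Cxcl10 was at 181 CPM in normal WT, 38.8 CPM in normal Rab37 KO, and at 23.7 CPM (10.2 to 46.7) with WT and 8.08 CPM (5.37 to 11.7) with Rab37 KO in the tumor libraries. A single cell held 75.0% of the Cxcl10 UMIs of tumor WT. Plet1, the surface protein used here as an alveolar macrophage gene, was at 1357 CPM in normal WT, 1378 CPM in normal Rab37 KO, 1118 CPM in tumor Rab37 KO and 820 CPM in tumor WT.

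Alveolar macrophages of both normal libraries included cells with Xist, transcribed from the inactive X chromosome, and cells with UMIs of the Y-linked genes Ddx3y, Eif2s3y, Kdm5d or Uty, which must come from different animals. Sex is not among the labels. In normal WT, 95 of 458 alveolar macrophages with Xist and no Y-linked UMI were inflammatory, or 20.7% (17.1 to 24.7), against 26 of 424 with Y-linked UMIs and no Xist, or 6.13% (4.04 to 8.86). In normal Rab37 KO the order was turned, with 14 of 274 Xist-only cells, or 5.11% (2.82 to 8.42), and 32 of 345 Y-linked-only cells, or 9.28% (6.43 to 12.8). The share was 4.06 times as high in normal WT as in normal Rab37 KO among Xist-only cells, and 0.661 times as high among Y-linked-only cells. The intervals of the Y-linked-only shares overlapped, as did those of the Xist-only and Y-linked-only cells within normal Rab37 KO. Shares by sex-linked transcripts were not recomputed after thinning. The 25 alveolar macrophages of tumor WT were all Xist-only, while the 3 inflammatory cells of tumor Rab37 KO were among 205 Y-linked-only cells.

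The order of the normal libraries therefore rested on the Xist-only cells. Over all alveolar macrophages, Tnf was at 520 CPM (501 to 540) in Xist-only cells of normal WT and 146 CPM (136 to 157) in its Y-linked-only cells. For normal Rab37 KO it was at 118 CPM (107 to 129) in Xist-only and 146 CPM (135 to 157) in Y-linked-only cells. Cxcl2, a neutrophil chemokine not used by the rule, was at 2895 and 1018 CPM in normal WT and at 798 and 845 CPM in normal Rab37 KO, in the same order of cells. Xist-only normal WT cells were the high ones for both genes, and the Y-linked-only cells of both genotypes lay within each other's intervals for Tnf. Sex, animal and genotype cannot be told apart for the Xist-only cells.

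**Figure D3:**
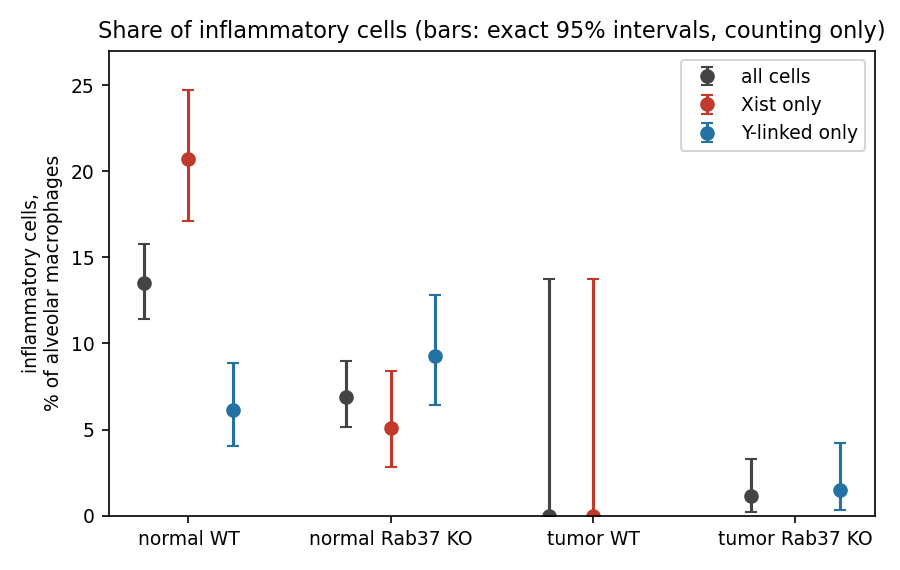
Share of alveolar macrophages that were inflammatory (vertical axis, percent) in each library, for all cells, for cells with Xist and no Y-linked UMI, and for cells with Y-linked UMIs and no Xist, with exact 95% Clopper-Pearson intervals for counting error. Normal WT Xist-only cells stand at 20.7%, and the other 3 groups of the normal libraries at 5.11% to 9.28%.

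The other genes of the inflammatory cells are described next, beside the other alveolar macrophages of the same library. Since the 3 rule genes chose the cells and were counted in them, these ratios describe the cells chosen and are not tests. In normal WT, 463 of 9255 genes with at least 50 UMIs were at least 1.5-fold higher in the inflammatory cells (5.00%) and 901 were at least 1.5-fold lower (9.74%). For normal Rab37 KO these were 796 (8.74%) and 915 (10.0%) of 9107 genes. The counts of list members given below are to be read beside these shares. Of 413 genes higher in normal WT and measured in both libraries, 164 were also higher and 28 lower in normal Rab37 KO. Of 802 genes lower in normal WT and measured in both, 166 were also lower and 108 higher in normal Rab37 KO.

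Of the rule genes, Tnf was at 1595 CPM in the inflammatory cells of normal WT against 103 CPM in the others, a ratio of 15.5 (14.4 to 16.6), and at 644 against 87.3 CPM in normal Rab37 KO, a ratio of 7.38. Il1a was at 473 against 49.6 CPM and at 118 against 32.3 CPM. Cxcl10 was at 1181 against 9.98 CPM in normal WT and at 390 against 8.53 CPM in normal Rab37 KO. Cxcl10 thus had the steepest contrast of the 3, since the other alveolar macrophages held very little of it.

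Neutrophil chemokines had some of the largest ratios outside the rule. Cxcl1, which draws neutrophils through the receptor CXCR2, was at 841 CPM in the inflammatory cells of normal WT against 43.2 CPM, a ratio of 19.4 (17.5 to 21.7), and at 231 against 33.5 CPM in normal Rab37 KO, a ratio of 6.91 (5.73 to 8.31). Cxcl2, a ligand of the same receptor, was at 7867 against 952 CPM in normal WT, a ratio of 8.27 (8.05 to 8.48), and at 3149 against 675 CPM in normal Rab37 KO, a ratio of 4.67. Cxcl3, the third ligand of this group, was 5.03-fold higher in normal WT and 14.0-fold higher in normal Rab37 KO, where 1 cell held 44.6% of its UMIs. Among Y-linked-only cells of normal WT, Cxcl3 was at 5.95 CPM in inflammatory and 31.0 CPM in other cells, against the direction of the whole library.

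Over the list of 22 chemokines, 13 of 15 measured members were at least 1.5-fold higher in normal WT and 1 lower, and the median of their log2 ratios was 1.37. In normal Rab37 KO 12 of 15 were higher and 1 lower, with a median of 0.92, and 11 members were higher in both libraries. Among Y-linked-only cells of normal WT, however, the median of the chemokines was 0.020. The median over all measured genes was -0.08 in normal WT and -0.02 in normal Rab37 KO. Ccl3 and Ccl4, chemokines that draw leukocytes, were at 1353 against 522 CPM and 550 against 118 CPM in normal WT. In normal Rab37 KO a single cell held 67.7% of the Ccl4 UMIs, and without the cell with most of its UMIs in each class the Ccl4 ratio there fell from 2.60 to 0.950. Ccl17, a T cell chemokine, was 7.26-fold higher in normal WT with 76.3% of its UMIs in 1 cell. Cxcl14 was 0.583 times as high, from 9 UMIs.

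Cytokines other than the rule genes were described in the same way. Il1b, the secreted partner of Il1a, was at 306 against 131 CPM in normal WT, a ratio of 2.33 (2.11 to 2.58), and at 287 against 108 CPM in normal Rab37 KO, where 1 cell held 59.9% of it. Il1rn, which encodes the antagonist of the IL-1 receptor, was at 389 against 169 CPM in normal WT and 314 against 161 CPM in normal Rab37 KO, ratios of 2.30 and 1.95. Tnfsf9, the ligand of the costimulatory receptor 4-1BB, was at 43.9 against 3.62 CPM in normal WT and 30.9 against 4.69 CPM in normal Rab37 KO. Il23a, a subunit of IL-23, was at 18.8 against 1.66 CPM in normal WT, with 33 UMIs in the inflammatory cells. Il1rn was higher alongside both IL-1 genes, so the inflammatory cells carried transcripts of the ligands and of their antagonist. Of 10 measured cytokines, 6 were higher and 1 lower in normal WT (median 1.01), and 7 were higher and 0 lower in normal Rab37 KO (median 1.20). Among Y-linked-only cells of normal WT the cytokine median was -0.0037. Of the 7 in normal Rab37 KO, Il12b had 100% of its UMIs in 1 cell and Il6 80.6%, and the Il1b ratio was 1.16 without the cell with most of its UMIs in each class. Ereg, a ligand of the EGF receptor that met the size rule for named genes, was at 169 against 20.0 CPM and at 82.9 against 31.2 CPM.

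Genes of the NF-kB pathway and its feedback inhibitors were higher as a group. In normal WT 25 of 29 measured members were at least 1.5-fold higher and 0 lower, and the median of their log2 ratios was 1.25, and in normal Rab37 KO 17 of 28 were higher and 0 lower, with a median of 0.85. Of the 17, Tnip3 had a ratio of 1.61 with an interval of 0.741 to 3.14, and Ptgs2 had 78.3% of its UMIs in 1 cell. In both libraries 15 members were higher. Among the inhibitors, Nfkbia, which holds NF-kB in the cytoplasm, was at 2141 against 385 CPM in normal WT, a ratio of 5.56 (5.31 to 5.81), and at 1212 against 324 CPM in normal Rab37 KO, a ratio of 3.74 (3.47 to 4.02). Tnfaip3, the ubiquitin-editing enzyme A20, was at 791 against 129 CPM and at 385 against 122 CPM, ratios of 6.12 and 3.14. Nfkbiz, a nuclear member of the inhibitor family that cooperates with NF-kB at secondary targets, was at 559 against 86.5 CPM and at 313 against 63.8 CPM, ratios of 6.46 and 4.91.

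Subunits of NF-kB were measured as well. Nfkb1, which encodes the precursor of p50, was at 401 against 134 CPM in normal WT and 267 against 140 CPM in normal Rab37 KO. Rel was at 409 against 164 CPM and 283 against 158 CPM. Rela, the subunit most often paired with p50, was at 82.1 against 60.7 CPM and at 63.1 against 59.4 CPM, under 1.5-fold in both libraries. Icam1, an adhesion molecule for leukocytes, was at 413 against 68.7 CPM and at 217 against 71.4 CPM. Gadd45b, a stress response target, was at 817 against 213 CPM and at 470 against 216 CPM. Tnfaip2 was 1.71-fold higher in normal WT and 0.960 times as high in normal Rab37 KO.

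**Figure D4:**
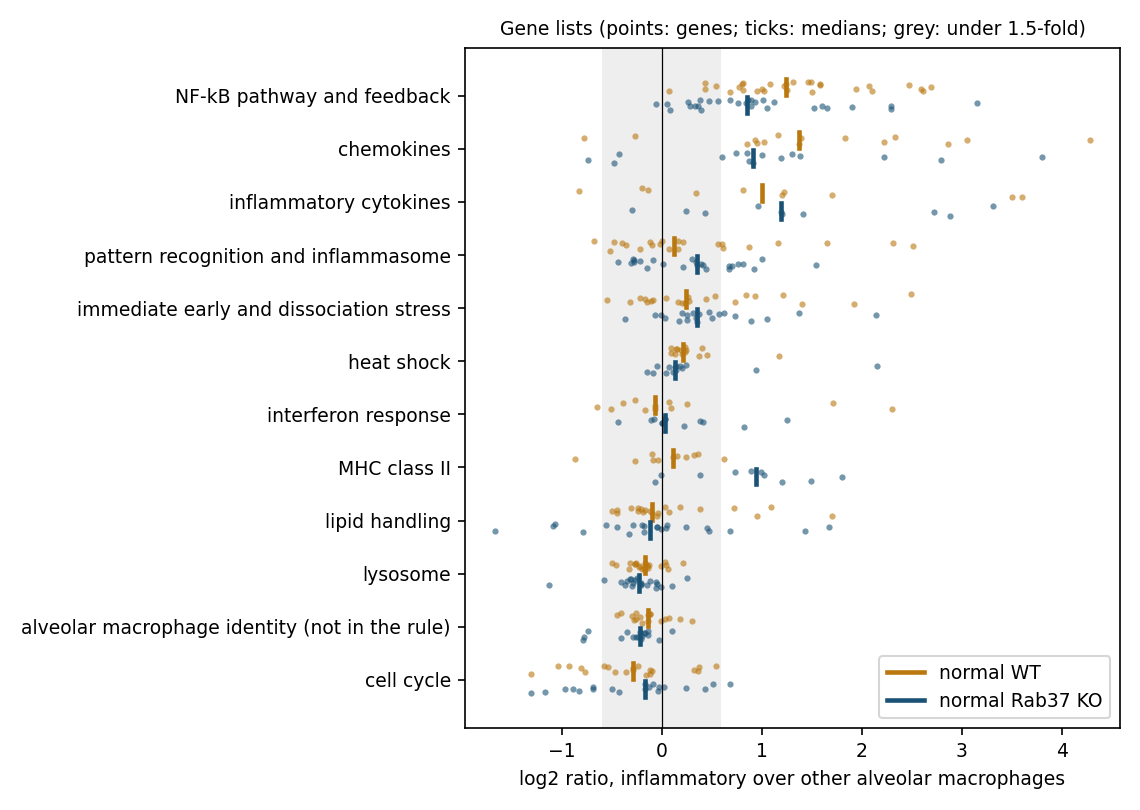
Log2 ratio of inflammatory over other alveolar macrophages (horizontal axis) for the measured genes of 12 lists, with 1 point per gene, a tick at each list's median, and normal WT and normal Rab37 KO in separate colours; grey marks less than 1.5-fold. The NF-kB list has medians of 1.25 and 0.85 and the chemokines 1.37 and 0.92, while the lysosome and alveolar macrophage identity lists lie close to the median of all genes.

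Sensors and receptors were raised in part. Of 22 measured genes of pattern recognition and the inflammasome, 7 were higher and 1 lower in normal WT (median 0.12), and in normal Rab37 KO 8 of 24 were higher and 0 lower (median 0.35). Tlr3, 1 of the 8, had a ratio of 1.70 with an interval of 0.843 to 3.13. Clec4e, a receptor for microbial glycolipids, was at 239 against 41.9 CPM in normal WT and 156 against 53.7 CPM in normal Rab37 KO. Nlrp3, the inflammasome sensor, was at 473 against 95 CPM and 189 against 100 CPM. Tlr2, the receptor for bacterial lipoproteins, was at 1345 against 599 CPM and 1032 against 646 CPM. Tlr4, the receptor for lipopolysaccharide, was at 53.6 against 68.5 CPM and 70.6 against 74.9 CPM. Ccrl2, an atypical receptor that binds chemerin, was at 658 against 114 CPM and 276 against 104 CPM. Clec4e, Nlrp3, Tlr2 and Ccrl2 were therefore higher in both libraries and Tlr4 in neither. Of the genes that carry the TNF signal, Tnfrsf1b was 1.78-fold higher in normal WT and 1.10-fold in normal Rab37 KO, and Tnfrsf1a was 1.04-fold and 1.06-fold.

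The interferon response genes that could be measured did not move as a list, although Cxcl10 is often counted among such genes. Of 12 measured members, 2 were higher and 1 lower in normal WT (median -0.06) and 2 higher and 0 lower in normal Rab37 KO (median 0.03). The higher ones were the same in both libraries, Irf1 and Ifih1. Irf1, a transcription factor also induced through NF-kB, was at 202 against 41.0 CPM in normal WT and 54.5 against 30.8 CPM in normal Rab37 KO. Ifih1, the sensor MDA5, was at 86.7 against 26.5 CPM and 56.9 against 23.9 CPM. A further 19 members, among them Isg15, Rsad2, Ifit1 and Ifnb1, had fewer than 50 UMIs in normal WT, and the medians do not cover them. In normal Rab37 KO, also under 50 UMIs, Ifit1 was at 30.9 against 0.533 CPM, with 72.0% of its UMIs in 1 cell. Others under 50 UMIs went both ways there. Higher ones included Oasl1 at 9.90 against 0.747 CPM, Isg15 at 6.19 against 1.92 CPM and Ifit3 at 3.71 against 0.533 CPM. Lower ones included Rsad2 at 1.24 against 2.35 CPM, from 1 UMI in the inflammatory cells, and Irf7 at 0 against 2.99 CPM. With so few UMIs, no direction was read for these genes. Cells picked on Cxcl10 alone had 297 CPM of Irf1 against 48.6 CPM in normal WT, with an Ifih1 ratio of 5.80. The 8 such cells of normal Rab37 KO had 99.8 against 31.5 CPM of Irf1 and an Ifih1 ratio of 4.67. Picked on Tnf and Il1a, normal WT cells had 230 against 42.1 CPM of Irf1 and an Ifih1 ratio of 4.04. Normal Rab37 KO cells picked in that way had 38.6 against 32.4 CPM of Irf1 and 19.3 against 26.9 CPM of Ifih1. The intervals of these last ratios, 0.736 to 1.84 and 0.353 to 1.30, included 1.

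Genes of tissue handling were examined because warm digestion can itself induce immediate early and heat shock genes. Of 22 such immediate early genes, 7 were higher and 0 lower in normal WT (median 0.25), and of 21 in normal Rab37 KO 6 were higher and 0 lower (median 0.36). Fos was at 787 CPM in inflammatory and 978 CPM in other cells of normal WT and at 930 and 908 CPM in normal Rab37 KO. Jun was at 1006 and 1085 CPM, and at 1275 and 995 CPM. Egr1 was at 766 and 329 CPM, and at 633 and 305 CPM. Of 14 heat shock genes, only Hspb1 was higher in normal WT, with 87.2% of its UMIs in 1 cell. Junb, Egr1, Egr3, Dusp2 and Nr4a1 of the immediate early list were higher in both libraries. Fosl1, unmeasured in normal Rab37 KO, and Maff were higher in normal WT, and Atf3 in normal Rab37 KO. Fos and Jun were thus not high in the inflammatory cells of normal WT while other genes of the list were. The part of digestion in the result was not tested.

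Genes of alveolar macrophage identity outside the rule were kept. All 17 members were measured, with 0 at least 1.5-fold higher or lower in normal WT (median -0.14), and in normal Rab37 KO 0 were higher and 3 lower, namely Marco, Fabp4 and Krt19 (median -0.22). Chil3, a secreted chitinase-like protein, was at 11122 against 12247 CPM in normal WT and 11811 against 12972 CPM in normal Rab37 KO. Ear2, an eosinophil-type ribonuclease, was at 1965 against 2405 CPM and 1755 against 2090 CPM. Pparg, the nuclear receptor that sets this cell type, was at 198 against 188 CPM and 192 against 220 CPM. All 17 markers summed to 27547 against 30926 CPM in normal WT and 27244 against 31494 CPM in normal Rab37 KO, and to 2689 and 1957 CPM in all cells outside the alveolar macrophages. The label of alveolar macrophage thus held for the members of both normal libraries.

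Plet1 differed between the libraries. It was at 2081 against 1232 CPM in normal WT, a ratio of 1.69 (1.63 to 1.75), and at 1331 against 1382 CPM in normal Rab37 KO, a ratio of 0.963 (0.904 to 1.02). Plet1 is 1 of the 7 genes used to choose alveolar macrophages. The other 6 had ratios between 0.715 for Krt79 and 1.02 for Siglecf in normal WT. Within normal WT the Plet1 ratio was 1.89 in Xist-only and 1.16 in Y-linked-only cells, and in normal Rab37 KO 1.04 and 0.963.

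Other programs are given by their counts. Of 22 lysosome genes 0 were higher or lower in normal WT, and of 21 lipid genes 4 were higher and 0 lower (medians -0.17 and -0.09), while in normal Rab37 KO 3 of 22 lipid genes were higher and 4 lower (median -0.11). Of 20 cell cycle genes, 0 were higher and 5 lower in normal WT, and 1 was higher and 7 lower in normal Rab37 KO. MHC class II genes had 1 of 11 higher and 1 lower in normal WT (median 0.12) and 7 of 10 higher and 0 lower in normal Rab37 KO (median 0.94), where 1 cell held 34.7% of the H2-Eb1 UMIs. Among Xist-only cells of normal Rab37 KO the MHC class II median was -0.02. Abca1, the cholesterol exporter, was at 181 against 138 CPM in normal WT and 61.9 against 129 CPM in normal Rab37 KO. Spp1, which encodes osteopontin, was at 427 against 359 CPM in normal WT and 404 against 473 CPM in normal Rab37 KO, and its receptor Cd44 at 1793 against 1585 CPM and 1625 against 1665 CPM.

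Markers of other cells were looked at as whole lists. The 10 interstitial macrophage markers summed to 775 CPM in inflammatory and 304 CPM in other cells of normal WT, and to 1411 and 247 CPM in normal Rab37 KO. Of these markers 6 of 9 were higher and 1 lower in normal WT and 7 of 8 higher in normal Rab37 KO, with 51.3% and 48.5% of the summed UMIs in 1 cell. At least 5 UMIs of these markers were found in 17 of 135 and 9 of 50 inflammatory cells. The 10 neutrophil markers summed to 188 against 656 CPM in normal WT and 331 against 637 CPM in normal Rab37 KO, and 0 inflammatory cells of either reached 1% neutrophil UMIs. T cell markers summed to 21.1 against 40.7 CPM and B cell markers to 59.9 against 13.7 CPM in normal WT, the latter with 72.4% in 1 cell and Cd79a at 0 by the rule. The same lists summed to 21.0 against 27.4 CPM and 13.6 against 14.4 CPM in normal Rab37 KO. NK cell markers summed to 63.8 against 15.2 CPM in normal WT and 134 against 32.4 CPM in normal Rab37 KO, with 83.0% and 98.1% of the UMIs in 1 cell. Classical monocyte markers summed to 385 against 356 CPM in normal WT and 749 against 323 CPM in normal Rab37 KO, where 1 cell held 46.9%. Dendritic cell markers summed to 13.1 against 13.7 CPM and 91.6 against 15.8 CPM, with 87.8% of the latter library's inflammatory UMIs in 1 cell. The part of the NK cell, monocyte and dendritic cell markers in the results was not tested. Without cells that had any C1q UMI or at least 10 UMIs of Igkc, the NF-kB list had medians of 1.14 in normal WT and 0.76 in normal Rab37 KO, and the Nfkbia ratios were 5.48 and 3.79. The chemokine median of normal Rab37 KO, in contrast, went from 0.92 to 0.33 without them.

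Of the genes named by size, 3 rested on few cells or on other cell types. Retnla, a product of alternatively activated macrophages, was at 240 against 0.978 CPM in normal WT, with 99.3% of its UMIs in 1 cell. In normal Rab37 KO it had only 5 UMIs in inflammatory and 16 in other cells, too few to count as measured. S100a8 and S100a9, neutrophil proteins, were the only 2 genes that met the size rule in the lower direction. S100a8 was at 42.2 against 219 CPM in normal WT and at 124 against 221 CPM in normal Rab37 KO, and S100a9 at 21.7 against 236 CPM and 102 against 255 CPM. Without cells of at least 1% neutrophil UMIs, S100a9 was 1.30-fold higher in the inflammatory cells of normal WT and 2.61-fold higher in those of normal Rab37 KO. The remaining 11 of the 12 raised genes were Cxcl1, Ereg, Cxcl2, Nfkbiz, Tnfaip3, Icam1, Ccrl2, Clec4e, Nfkbia, Cxcl3 and Nlrp3.

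Higher levels of these genes were already seen below the limit. In normal WT, Nfkbia was at 294 CPM in 333 cells with no UMI of the rule genes, 342 CPM at 1 to 2 UMIs, 443 CPM at 3 to 5, 645 CPM at 6 to 9, 1292 CPM at 10 to 19, 1961 CPM at 20 to 49 and 3626 CPM in 34 cells at 50 or more. Cxcl2 went from 345 CPM to 15327 CPM and Tnfaip3 from 76.5 to 1549 CPM between the same ends. Plet1 was at 1203 CPM in the lowest and 3150 CPM in the highest class of normal WT. Chil3 went the other way, from 13213 to 9165 CPM. In normal Rab37 KO, Nfkbia went from 274 CPM at 0 UMIs to 923 CPM in the 38 cells at 10 to 19 UMIs, and Cxcl2 from 308 to 3019 CPM. The classes above 20 UMIs held 10 and 2 cells there. In both libraries the NF-kB genes were higher in each class from 3 to 5 UMIs upward to 10 to 19 UMIs for Nfkbia, Tnfaip3 and Cxcl2.

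**Figure D5:**
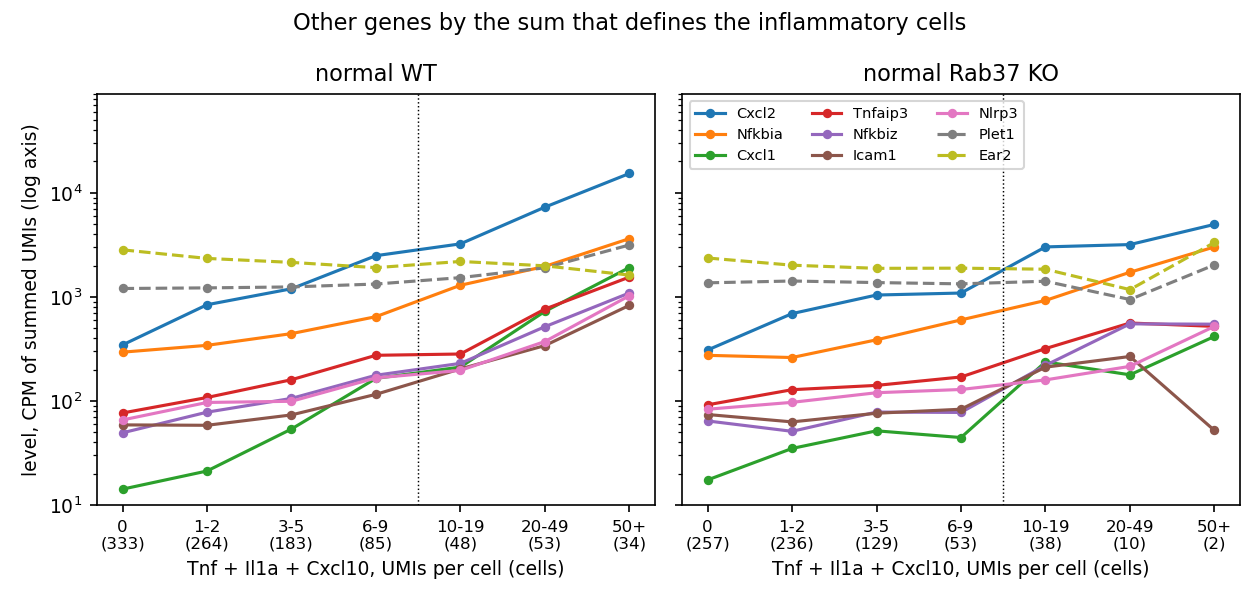
Levels of 9 genes (vertical axis, CPM of summed UMIs, log axis) in alveolar macrophages of normal WT and normal Rab37 KO, grouped by their UMIs of Tnf, Il1a and Cxcl10 (horizontal axis, number of cells in parentheses), with Plet1 and Ear2 dashed and a dotted line at the limit of 10 UMIs. Cxcl2 climbs from 345 to 15327 CPM in normal WT, and Ear2 goes from 2830 to 1618 CPM.

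Across normal WT alveolar macrophages thinned to 5000 UMIs, the 10 genes whose counts followed the sum of the rule genes most closely among 5175 candidates were Cxcl2, Cxcl1, Ccrl2, Tnfaip3, Nfkbia, Tlr2, Nfkbiz, Junb, Gadd45b and Plek. Spearman's rho was 0.51 for Cxcl2 and 0.30 for Plek over 971 cells. In 708 normal Rab37 KO cells the same genes had values between 0.14 for Gadd45b and 0.26 for Cxcl2. Cells of a library share its free RNA and its animals, and no p-value is given.

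Between genotypes, the inflammatory cells of normal Rab37 KO were lower than those of normal WT in most NF-kB genes. Of 5735 genes with at least 50 UMIs, 390 were at least 1.5-fold higher (6.80%) and 292 at least 1.5-fold lower (5.09%) in Rab37 KO. Without the cell with most UMIs of each gene in each library, 237 were higher and 501 lower. Class totals were left whole in that count, so leaving out 1 cell takes a larger part from the smaller Rab37 KO class. The change in balance is therefore not read as a result. Of 26 measured NF-kB genes 1 was higher and 14 lower (median log2 ratio -0.66), and of 13 chemokines 1 was higher and 3 lower (median -0.36), beside a median of 0.02 over all measured genes. Cxcl1 was at 231 CPM in normal Rab37 KO and 841 CPM in normal WT, 3.63-fold lower, whereas in the other alveolar macrophages it was at 33.5 and 43.2 CPM. Nlrp3 was at 189 and 473 CPM in inflammatory cells and at 100 and 95 CPM in the others. Irf1 was 3.72-fold lower and Nfkbia 1.77-fold lower in inflammatory cells of Rab37 KO.

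The sum of the rule genes differed between these cells, so those with 10 to 19 UMIs were also set side by side, a choice made after the data were seen. Among these 48 normal WT and 38 normal Rab37 KO cells, 1 of 20 measured NF-kB genes was higher and 0 lower in Rab37 KO (median -0.11), beside 6.55% of 3543 measured genes higher and 4.18% lower. Nfkbia was at 923 CPM in Rab37 KO and 1292 CPM in WT, Tnfaip3 at 318 and 282 CPM, Cxcl2 at 3019 and 3229 CPM, Cxcl1 at 237 and 211 CPM and Icam1 at 211 and 203 CPM. These 5 genes differed by less than 1.5-fold, whereas Ccl4 was at 74.3 CPM in Rab37 KO and 218 CPM in WT. Of 11 measured chemokines 2 were higher and 3 lower (median -0.10), and of 5 cytokines 1 was higher and 1 lower (median 0.29). Of the 36 cells with at least 50 UMIs of the rule genes, 34 were in normal WT.

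By sex-linked transcripts, the high sums of normal WT were in Xist-only cells. Their median sum was 35 UMIs and 31 of 95 reached 50 UMIs, against a median of 13.5 and 2 of 26 in Y-linked-only cells. Both Rab37 KO groups had low medians, 14 and 12. Among inflammatory Y-linked-only cells, Nfkbia was at 1137 CPM in normal WT and 1318 CPM in normal Rab37 KO, and Tnfaip3 at 220 and 431 CPM. Among inflammatory Xist-only cells, Nfkbia was at 2466 and 1042 CPM and Tnfaip3 at 1019 and 359 CPM. Cxcl1 was at 304 and 124 CPM and Cxcl2 at 3809 and 3401 CPM among inflammatory Y-linked-only cells, in the same order of libraries. Nfkbia and Tnfaip3 were thus higher in normal WT among Xist-only cells. Among Y-linked-only cells, Tnfaip3 was higher in normal Rab37 KO and Cxcl1 in normal WT, while Nfkbia and Cxcl2 differed by less than 1.5-fold.

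The 3 inflammatory cells of tumor Rab37 KO were unlike those of normal lung. They had 31518, 29992 and 43421 UMIs, compared with a median of 11707 UMIs in the other alveolar macrophages of that library. Neutrophil markers made up 2.24%, 0.0133% and 4.39% of their UMIs, and Cxcl2 had 1329, 73 and 1032 UMIs. The cell with most rule gene UMIs, at 35, had no UMI of Marco. With 2 of 3 cells above 1% neutrophil UMIs, these cells were not described further as alveolar macrophages.

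Cells past the limit of 10 UMIs were not restricted to alveolar macrophages. Outside them, 100 cells of normal WT, 80 of normal Rab37 KO, 6 of tumor WT and 186 of tumor Rab37 KO reached it, and 129 of the last had at least 1% neutrophil UMIs. In normal WT, 32 of these cells had at least 5 UMIs of C1qa, C1qb and C1qc and little neutrophil RNA. Beside the alveolar macrophages past the limit, they had 4916 against 550 CPM of Ccl4, 2126 against 1181 CPM of Cxcl10 and 12427 against 7867 CPM of Cxcl2. They had 76.3 against 473 CPM of Il1a, 970 against 1595 CPM of Tnf and 141 against 2081 CPM of Plet1. Both kinds of cell had passed the same limit on the same genes, so the values of the 3 rule genes are descriptions. In normal Rab37 KO, 21 such cells with C1q had 3395 against 430 CPM of Ccl4 and 317 against 118 CPM of Il1a. Ccl4 was thus higher in the cells with C1q in both normal libraries, and Il1a had opposite orders in them.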

How the data were processed

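Live CD45+ lung cells of 4 mouse groups, 1 library each, had been sequenced as 3′ single-cell RNA on the 10x Genomics platform. Raw UMI counts, not normalized, are what the deposited matrices contain for each gene and barcode. Per the submitters' processing notes the build was mm10. The software version was 3.0.1 (normal) and 3.1.0 (tumor), per the file headers. Which aligner was used is not given in these sources. The 14396 barcodes held 31053 features.

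For each class in each library, UMIs were added up over cells and expressed as CPM (Python 3.11.15, numpy 2.4.6, scipy 1.17.1, pandas 2.3.3). Median depths of cells passing were 3999 to 6566 UMIs. Genes with at least 50 UMIs over both classes counted as measured and as higher or lower at 1.5-fold. Intervals are exact 95% intervals for counting error (Poisson, conditional binomial for ratios, Clopper-Pearson for shares), and a count of 0 was set to a floor of 3. The contrast script was tested on simulated data. Doublets were kept, as the rule gives, and 4 of 135 and 3 of 50 members of the normal libraries were called doublets by Scrublet (scanpy 1.11.5). In all, 15 barcodes occurred in more than 1 library, and 0 of them were inflammatory cells.

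Besides the rule genes and members of 31 gene lists, genes were named by size: up to 12 each way by ratio in normal WT, with at least 100 CPM and 20 UMIs in the higher class, intervals that did not overlap and the same direction at 1.5-fold in normal Rab37 KO. That ranking omitted genes of the rule, of the mitochondrion, ribosome, hemoglobins, antigen receptors and sex chromosomes, and predicted genes. The members and lists were chosen with earlier results of these data known. Cxcl11, Mx2 and Clec7a were not analysed here. In all, 11 planned and 7 later alternatives were tried.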

Additional observations from a re-analysis of the deposited data

Results flagged for a closer look

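The contrast of the normal libraries differed by sex-linked transcripts. The share of inflammatory cells was 4.06 times as high in normal WT as in normal Rab37 KO among alveolar macrophages with Xist alone, and 0.661 times as high among those with Y-linked UMIs alone. The Y-linked-only shares, 6.13% (4.04 to 8.86) and 9.28% (6.43 to 12.8), had overlapping intervals, so their order is not settled even by counting. The difference was not tested, since each group was 1 library and sex and animal are not in the labels.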

How the results depend on the processing

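Of 861 ratios of named genes recomputed under the alternatives, 18 turned direction, 362 lay outside the counting interval of the reported value and 481 within it. Of 608 list medians 2 turned and 13 moved, and of 98 gene counts 25 moved, as did 13 of 42 shares. The medians of the NF-kB list in normal WT lay between 0.86 and 1.40. The alternatives by sex-linked transcripts, by single rule genes, without the largest cell, without C1q or Igkc cells and at 10 to 19 UMIs were chosen after seeing the data, and the cause of each change below was not tested unless fewer cells or genes show it.

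Shares of inflammatory cells in normal WT, normal Rab37 KO and tumor Rab37 KO were 26.1%, 18.6% and 9.09% at a limit of 5 UMIs, and 8.70% and 1.66% in the normal libraries at 20 UMIs. At 1000 CPM normal Rab37 KO had 3.86%. Thinned to 5000 UMIs, with shallower cells left out, they were 8.09%, 1.02% and 0%. Among Xist-only cells the normal libraries had 20.7% and 5.11%, and among Y-linked-only cells 6.13% and 9.28%.

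Numbers of genes at 1.5-fold also moved. At 5 UMIs, 432 were lower in normal WT and 307 in normal Rab37 KO. At 20 UMIs, 1844 were higher and 1882 lower in normal Rab37 KO and 557 lower between genotypes. At 1000 CPM, 1507 were lower in normal Rab37 KO. With genes of at least 10 UMIs, 1035 were higher and 1572 lower in normal WT, 2143 higher in normal Rab37 KO, and 1439 higher and 984 lower between genotypes. Without the cell with most UMIs of each gene, 1357 were lower in normal WT, 305 higher and 1840 lower in normal Rab37 KO, and 237 higher and 501 lower between genotypes. Class totals were left whole there, which by itself lowers the class with fewer cells, so these counts are not read as results. Between genotypes, 500 were lower among Xist-only and 142 among Y-linked-only cells, and at 10 to 19 UMIs 232 were higher and 148 lower. Chosen on Cxcl10, 703 were higher and 1358 lower in normal WT, 2222 higher and 1881 lower in normal Rab37 KO, and 537 lower between genotypes.

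The chemokine median in normal Rab37 KO was 1.56 at 20 UMIs, 1.54 chosen on Cxcl10 and 0.33 without C1q or Igkc cells, and in normal WT it was 0.020 among Y-linked-only cells. The cytokine median of normal WT was -0.0037 there, and the MHC class II median of normal Rab37 KO -0.020 among Xist-only cells. Ratios that turned in normal WT were Retnla at 0.0440 (20 UMIs) and 0.0522 (1000 CPM), S100a9 at 1.30 without neutrophil RNA and Cxcl3 at 0.192 (Y-linked only). Turning in normal Rab37 KO, S100a9 was 2.61 and S100a8 1.91 without neutrophil RNA, and 1.12 and 1.19 among Y-linked-only cells. Ifih1 was 0.760 at matched depth, 0.455 among Xist-only cells and 0.716 chosen on Tnf and Il1a. Ccl4 was 0.790 at matched depth, 0.950 without the largest cell, 0.605 among Y-linked-only cells, 0.198 chosen on Tnf and Il1a and 0.224 without C1q or Igkc cells. Il1b was 0.502 among Xist-only cells and Ccl3 0.956 chosen on Cxcl10.

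No paired analysis was possible because each group had 1 library. The tumor WT library held 0 inflammatory cells and gave no ratio. The 3 cells of tumor Rab37 KO and the 50 of normal Rab37 KO limit the precision there.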
